A study of Mus musculus with 8 samples.

Results

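The sarcomeric myosin heavy chains are the motor proteins of the thick filament of striated muscle, and 9 of their genes (Myh1, Myh2, Myh3, Myh4, Myh6, Myh7, Myh7b, Myh8 and Myh13) are described here. They were taken by gene symbol from the 16686 genes counted in the tibialis anterior (TA) muscle of aged mice, and all 9 were present and passed the filter on low counts that left 12542 genes for the test, Myh13 through the counts of the knockout mice only. The TA, a fast-twitch muscle of the lower leg, was taken from 4 wild-type (WT) and 4 Mybpc2 knockout (C2-/-) male mice, with 1 library of messenger RNA per mouse. All mice were of the FVBN strain and were labelled as 22 months old, although the labels' entry on housing gives a younger age. The C2-/- mice lack fast myosin binding protein-C (fMyBP-C), which binds the thick filament in fast fibres, because part of Mybpc2 was replaced with a Neo cassette flanked by LoxP sites, a deletion that is not restricted to muscle. The comparison asks whether the isoform make-up of the motor itself differed between aged muscle with and without this binding partner.

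Between 25425993 and 29747692 reads were counted per mouse, and levels are given as CPM, counts scaled to the sequencing depth with TMM factors, or as the authors' TPM, which also correct for transcript length, where the levels of members are ranked. Family shares and the ratios of Myh13 to Myh1 and Myh8 are by counts, and listed genes are ranked by CPM. Mybpc2 lay between 4963 and 7389 CPM in the WT mice and between 3.85 and 4.35 CPM in C2-/- mice 1, 2 and 4, whereas C2-/- mouse 3 had 38.3 CPM, or 0.67% of the WT mean. The summed markers of skeletal muscle fibres (Ckm, Acta1, Des, Mb and Pvalb) took between 82737 and 105343 CPM in every mouse, led by Acta1, skeletal alpha-actin, and Ckm, muscle creatine kinase. WT mouse 2 stood apart in the summed markers of denervated fibres, at 179.1 CPM, the highest of the 8 mice. Because whole muscle was sequenced, fewer fibres of a type and less RNA per fibre cannot be told apart.

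Each myosin heavy chain carries a motor head that binds actin and hydrolyses ATP, and a long tail that packs into the thick filament. Adult limb fibres are classified by the isoform they express, from slow type I (Myh7) through fast IIa (Myh2) and IIx (Myh1) to the fastest, IIb (Myh4). Myh3 and Myh8 are the embryonic and perinatal isoforms, which reappear in regenerating fibres, Myh13 is the isoform of the extraocular muscles, Myh6 is the alpha isoform of the heart, and Myh7b is a slow tonic isoform whose gene hosts a microRNA in an intron.

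Because the members resemble each other, their sequences decide how well short reads can tell them apart, and they are shown first. Myh3, Myh2, Myh1, Myh4, Myh8 and Myh13 lie in this order on the forward strand of chromosome 11, in a cluster of 293.2 kb from position 67078273 to 67371502 (GRCm38). Myh6 and Myh7 lie beside each other on chromosome 14, and Myh7b lies alone on chromosome 2. The coding sequences, between 5808 and 5829 bases long in the GENCODE transcripts of this build, were most alike for Myh6 and Myh7, with 91.7% of aligned bases identical, and for Myh1 and Myh2, with 91.1%. Myh13 was the most distant member of the cluster, sharing 77.6% of its aligned bases with Myh3 and 79.8% with Myh8, its neighbour. Myh7b shared between 68.7% and 72.4% with the others.

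**Figure D1:**
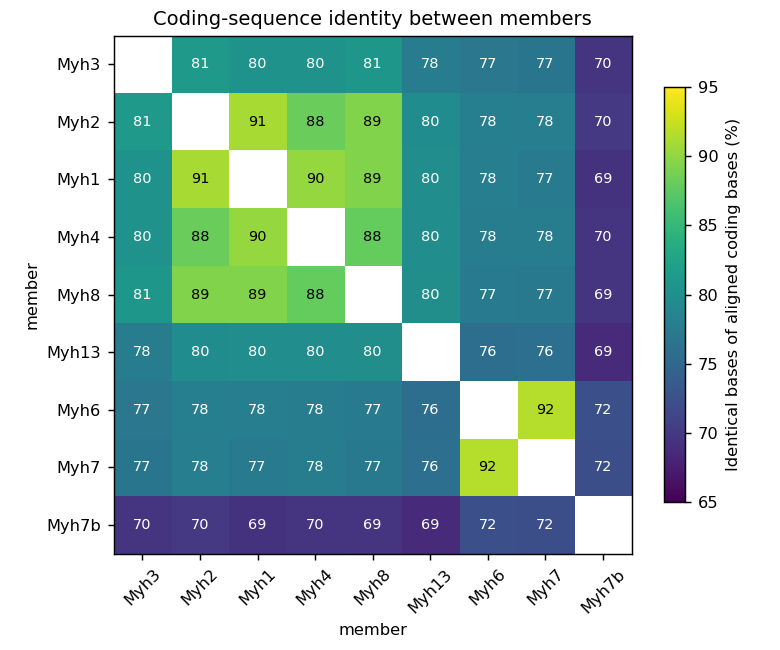
Percentage of aligned coding bases that are identical between each pair of the 9 members, from GENCODE transcripts on GRCm38, with the 6 genes of the chromosome 11 cluster first in their order on the chromosome. The adult fast isoforms and Myh8 form 1 block, Myh6 and Myh7 another, at 91.7%, and Myh13 and Myh7b stand apart from their neighbours.

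The distance of Myh13 is not even along the gene. Its longest stretch in common with another member is 213 bases, which Myh8 holds without a difference, in exons 12 and 13 of the 39 exons of Myh13 (chr11:67341213-67341308 and chr11:67341415-67341531, forward strand, coding bases 1318 to 1530). This stretch is printed because a read from it cannot be assigned to Myh13 or Myh8 by its sequence, and because it differs by only 3 bases from the abundant Myh1 and by 7 from Myh4. Capitals mark the bases that differ from Myh13.
Myh13 and Myh8: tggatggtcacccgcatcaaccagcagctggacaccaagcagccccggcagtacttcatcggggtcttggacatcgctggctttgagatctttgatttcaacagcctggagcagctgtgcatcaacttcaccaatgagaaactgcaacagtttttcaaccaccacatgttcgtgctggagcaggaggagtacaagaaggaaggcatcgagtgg
Myh1: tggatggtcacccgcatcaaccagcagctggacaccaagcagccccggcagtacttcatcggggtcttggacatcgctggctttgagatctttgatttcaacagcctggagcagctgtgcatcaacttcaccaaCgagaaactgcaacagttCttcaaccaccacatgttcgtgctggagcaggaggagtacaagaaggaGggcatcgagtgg
Myh2: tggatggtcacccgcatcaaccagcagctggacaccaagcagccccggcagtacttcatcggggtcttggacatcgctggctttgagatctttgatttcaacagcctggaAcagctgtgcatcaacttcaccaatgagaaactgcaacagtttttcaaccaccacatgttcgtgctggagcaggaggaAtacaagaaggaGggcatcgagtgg
Myh4: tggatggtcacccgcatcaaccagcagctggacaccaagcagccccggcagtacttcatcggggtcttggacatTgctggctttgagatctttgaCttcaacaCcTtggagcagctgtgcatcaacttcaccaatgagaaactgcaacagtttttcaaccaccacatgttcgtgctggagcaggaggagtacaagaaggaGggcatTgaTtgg
Myh7: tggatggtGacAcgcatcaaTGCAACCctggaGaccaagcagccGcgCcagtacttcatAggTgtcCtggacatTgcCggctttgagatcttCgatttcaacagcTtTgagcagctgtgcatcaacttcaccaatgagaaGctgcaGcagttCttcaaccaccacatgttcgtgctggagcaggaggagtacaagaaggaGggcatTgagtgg

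Over the whole coding sequence, 3.6% of all 100-base windows of Myh13 occur without a difference in another member, and 8.92% do so when up to 2 mismatches are allowed. The share of identical windows was 12.0% in Myh6 and in Myh7, 10.2% in Myh1, 9.58% in Myh2, 7.0% in Myh8, 3.99% in Myh4 and 1.19% in Myh3, and there was no such window in Myh7b. How shared reads were divided between genes was not given in the sources used here. These shares do not bound the error of a low member, since Myh8 had between 44 and 203 counts per mouse and Myh1 between 139859 and 265365, so that a small part of the Myh1 reads would exceed all counts of Myh8 or Myh13. Antisense transcripts also overlap some members, as Mhrt covers 5.62% of the annotated exonic bases of Myh7 and Myhas covers 8.11% of those of Myh1, and the strand setting of the counting was not given either.

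The 250 bases before the start of transcription, as RefSeq gives them on GRCm38.p6, are printed for the 3 adult fast isoforms, which make up nearly all of the family's RNA, and for Myh8 and Myh13. Capitals mark E-boxes (CANNTG, the same on both strands), matches to the MEF2 motif on either strand, and TATAAA on the strand of the gene. All 9 members matched a RefSeq entry.
Myh4 (chr11:67237562-67237811, forward): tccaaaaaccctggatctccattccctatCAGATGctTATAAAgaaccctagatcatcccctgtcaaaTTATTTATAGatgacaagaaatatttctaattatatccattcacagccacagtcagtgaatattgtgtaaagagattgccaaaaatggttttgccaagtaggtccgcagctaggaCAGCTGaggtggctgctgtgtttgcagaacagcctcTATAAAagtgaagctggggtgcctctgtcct
Myh1 (chr11:67199852-67200101, forward): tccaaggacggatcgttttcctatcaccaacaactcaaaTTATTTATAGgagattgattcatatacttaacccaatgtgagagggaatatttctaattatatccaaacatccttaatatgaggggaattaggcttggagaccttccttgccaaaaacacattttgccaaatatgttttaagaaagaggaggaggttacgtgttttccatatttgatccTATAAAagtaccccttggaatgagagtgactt
Myh2 (chr11:67170777-67171026, forward): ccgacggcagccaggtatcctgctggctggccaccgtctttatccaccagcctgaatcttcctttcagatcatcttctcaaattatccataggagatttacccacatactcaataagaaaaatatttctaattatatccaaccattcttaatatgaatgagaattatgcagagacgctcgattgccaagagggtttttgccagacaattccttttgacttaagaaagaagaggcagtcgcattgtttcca
Myh8 (chr11:67276874-67277123, forward): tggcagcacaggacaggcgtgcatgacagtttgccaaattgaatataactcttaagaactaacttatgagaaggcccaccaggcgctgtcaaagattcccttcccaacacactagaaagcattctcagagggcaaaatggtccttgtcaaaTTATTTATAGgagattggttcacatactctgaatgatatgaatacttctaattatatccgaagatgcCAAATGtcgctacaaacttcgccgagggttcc
Myh13 (chr11:67326853-67327102, forward): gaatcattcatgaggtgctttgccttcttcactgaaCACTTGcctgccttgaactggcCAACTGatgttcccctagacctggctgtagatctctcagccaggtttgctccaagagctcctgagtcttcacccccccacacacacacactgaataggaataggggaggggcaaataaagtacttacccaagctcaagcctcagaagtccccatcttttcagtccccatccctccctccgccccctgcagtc

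The same 10 letters, TTATTTATAG, matched the MEF2 motif in Myh4, Myh1 and Myh8, at bases -182, -211 and -99 before the start. These letters were found in 37 of 32851 RefSeq promoters of this length, or 0.113%, and any MEF2 match in 2.92%. On the opposite strand they hold TATAAA, which was searched on the strand of the gene only. TATAAA began at base -31 in Myh4, with a further one at -213, at base -32 in Myh1 and at base -29 in Myh3, and 7.59% of all promoters hold it. Myh4 held E-boxes at bases -221 and -67, and Myh13 at bases -214 and -192, in a motif that 66.2% of all promoters hold. None of these motifs occurred in the Myh2 window.

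Myh4, Myh1 and Myh2 accounted for nearly all myosin heavy chain RNA of the aged TA, and their order was the same in both genotypes. Per length, Myh4 stood at 13414 ± 4983 TPM in WT and 15113 ± 3465 TPM in C2-/- (SD, n = 4 each). Myh1 followed at 1947 ± 641 and 2580 ± 212 TPM, and Myh2 at 103.5 ± 44.5 and 91.3 ± 35.0 TPM. The values of these 3 genes did not overlap with each other in any group. The remaining members were at least an order of magnitude below Myh2 in their group means.

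**Figure D2:**
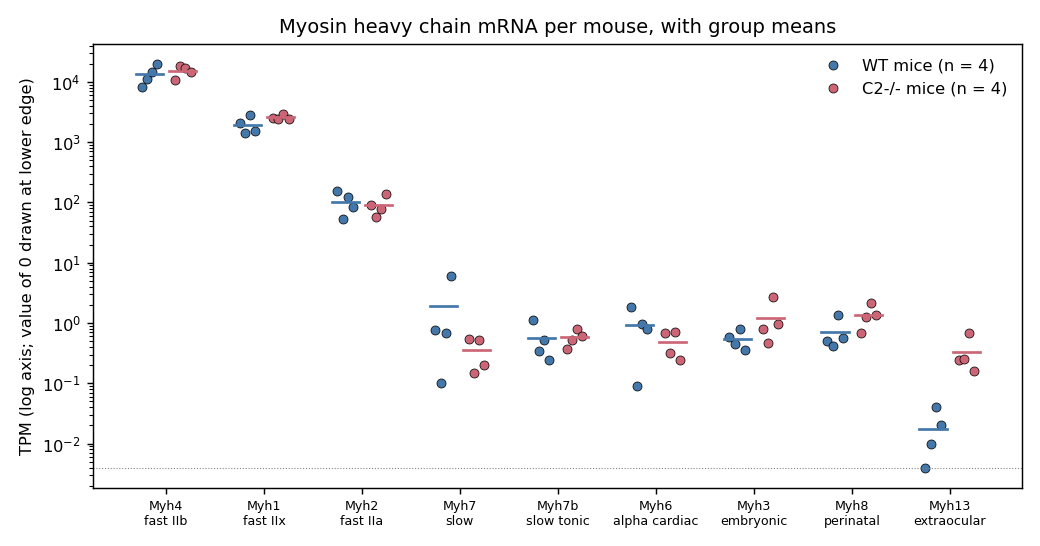
TPM of each member in each mouse on a log axis, with WT in blue, C2-/- in red and bars at the group means, and with a value of 0 drawn on the dotted line. The 3 adult fast isoforms occupy separate ranges from 52.7 to 19650 TPM, 5 others spread between 0.09 and 6.1 TPM, and Myh13 is the member whose groups do not overlap.

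Among the low members of the WT mice the group means fell in the order Myh7 (1.91 ± 2.81 TPM), Myh6 (0.915 ± 0.706), Myh8 (0.71 ± 0.437), Myh7b (0.56 ± 0.399), Myh3 (0.543 ± 0.188) and Myh13 (0.0175 ± 0.0171; SD, n = 4 each). Neighbours in this order overlapped from mouse to mouse down to Myh3, whereas Myh13, at 0.04 TPM or less, lay below every other member. In the C2-/- mice the order was Myh8 (1.37 ± 0.613 TPM), Myh3 (1.23 ± 0.991), Myh7b (0.578 ± 0.18), Myh6 (0.488 ± 0.243), Myh7 (0.355 ± 0.209) and Myh13 (0.335 ± 0.24), and all neighbours overlapped. Slow type I myosin was thus a trace of the TA in both genotypes, with Myh7 at 6.1 TPM or less in every mouse.

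As a share of the summed family counts, Myh4 took 78.4%, 88.4%, 83.6% and 92.5% in WT mice 1 to 4, and 80.1%, 88.1%, 85.0% and 85.0% in C2-/- mice 1 to 4. The groups overlapped almost entirely, and the WT mice held both the lowest and the highest share. The means were 85.7 ± 6.08% and 84.5 ± 3.28% (SD, n = 4 each), a difference of -1.19 percentage points (two-sided exact permutation test, p = 0.743, with 0.0286 the smallest p that 4 against 4 mice allow). The 95% Wilson interval of each share spanned 0.17 points or less, covering counting error only. The direction was reversed without WT mouse 4 (1.06 points) and without C2-/- mouse 1 (0.279 points).

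Myh1 took 13.5 ± 5.60% of the family in WT and 14.9 ± 3.13% in C2-/-, and Myh2 took 0.756 ± 0.515% and 0.547 ± 0.256%. Across mice the ratio of Myh4 to Myh1 in TPM ran from 3.90 to 12.97 in WT and from 4.17 to 7.55 in C2-/-, so the range among WT mice contained all C2-/- mice. The ratio of Myh1 to Myh2 in TPM was 13.5, 26.44, 22.75 and 18.01 in WT mice 1 to 4. In C2-/- mice 1 to 4 it was 27.6, 42.87, 37.58 and 17.51. C2-/- mouse 4 lay within the WT range of this ratio, and the other C2-/- mice lay above it. These ratios were not tested. Myh7, Myh6 and Myh7b together took 0.0215 ± 0.0157% and 0.00838 ± 0.00344%, and Myh3, Myh8 and Myh13 together 0.00861 ± 0.00356% and 0.0163 ± 0.00815%. All 9 members together held 5.07 ± 1.37% of all counts in WT and 5.801 ± 0.982% in C2-/-.

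**Figure D3:**
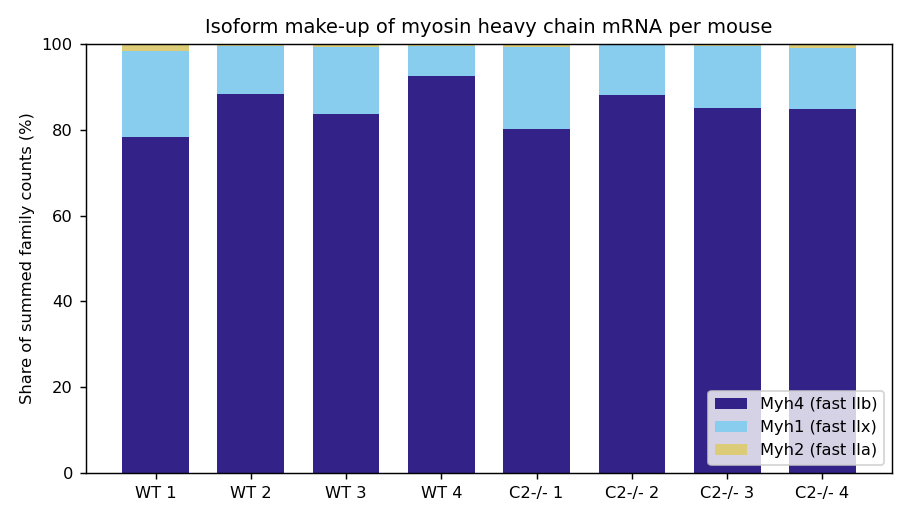
Share of the summed counts of the 9 members, in percent, taken by Myh4, Myh1 and Myh2 in each of the 8 mice, stacked from 0, where the other 6 members are too low to be seen. Myh4 spans 78.4% to 92.5% among WT mice and 80.1% to 88.1% among C2-/- mice, and Myh1 fills most of the remainder.

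Between the genotypes, no member passed the test adjusted over all tested genes (Benjamini-Hochberg, after edgeR's quasi-likelihood test). Of all tested genes, 4 were called with an adjusted p under 0.05 above 1.5-fold, or 0.0319%, among them Mybpc2. At an unadjusted p under 0.05 were 4 of 9 members, 3 with higher values in C2-/- (Myh3, Myh8 and Myh13, all low) and 1 with lower values (Myh7), against 5.29% of all tested genes, of which 3.38% lay higher and 1.91% lower in C2-/-. The values of 1 member, Myh13, did not overlap between the groups and lay higher in C2-/-, against 3.38% of all tested genes in either direction, 2.03% higher and 1.36% lower. Since Myh13 entered the test only through the group where it was high, these counts are read without it as 3 of 8 members at an unadjusted p under 0.05 and none without overlap. The median log2 fold change over the members was 0.09, and over all tested genes -0.02.

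Of the adult fast isoforms, Myh4 stood at 27803, 40554, 45520 and 67043 CPM in WT mice 1 to 4 and at 35608, 57410, 54751 and 45432 CPM in C2-/- mice 1 to 4. All C2-/- values lay within the WT range. The log2 fold change of C2-/- over WT was 0.09 ± 0.26 (SE, adjusted p = 0.99), and it was -0.08 without WT mouse 1.

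Myh1 was at 7111, 5099, 8547 and 5155 CPM in WT and at 8509, 7581, 9410 and 7597 CPM in C2-/-. WT mouse 3 lay inside the range of the C2-/- mice, and the other 3 WT mice lay below it. The log2 fold change was 0.35 ± 0.18 (unadjusted p = 0.0802, adjusted p = 0.968).

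Myh2 was at 532, 195, 380 and 289 CPM in WT and at 312, 179, 253 and 439 CPM in C2-/-. The highest mouse held 2.98 times the CPM of the lowest, and the groups overlapped. The log2 fold change was -0.24 ± 0.32 (adjusted p = 0.979), and 0.04 without WT mouse 1.

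**Figure D4:**
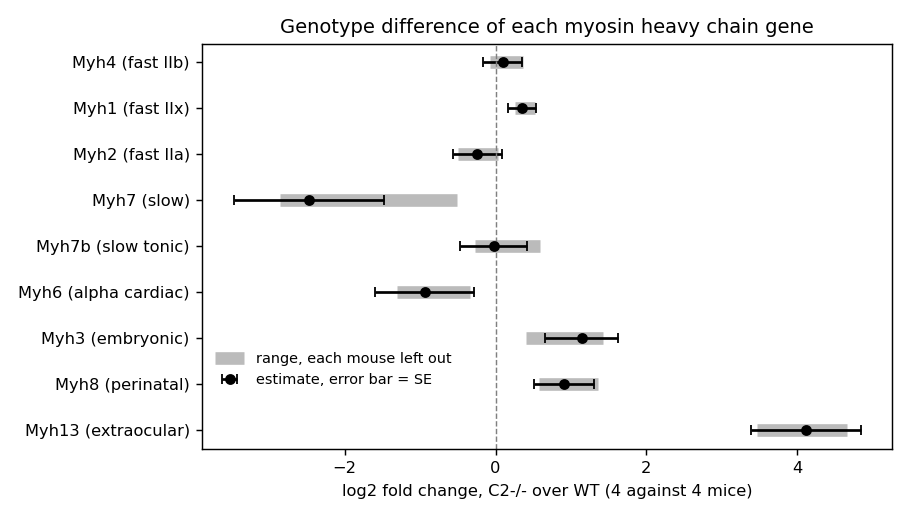
Log2 fold change of C2-/- over WT for each member (points) with its SE (error bars), and the range of the estimate when each of the 8 mice is left out in turn (grey). Myh4, Myh1 and Myh2 lie within 0.4 of 0, Myh7 spans -2.86 to -0.51 as mice are left out, and Myh13 lies at 4.12 with a range from 3.47 to 4.66.

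Among the slow and cardiac isoforms, the largest difference was that of Myh7, and it rested on 1 mouse. Myh7 was at 2.62, 0.365, 2.05 and 20.9 CPM in WT and at 1.85, 0.446, 1.74 and 0.624 CPM in C2-/-. WT mouse 4 was far above the rest, and the other 7 mice overlapped. The log2 fold change of -2.47 ± 0.999 (unadjusted p = 0.0322, adjusted p = 0.914) became -0.51 (unadjusted p = 0.458) without WT mouse 4.

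Myh6 was at 6.21, 0.328, 2.91 and 2.75 CPM in WT and at 2.23, 1.004, 2.34 and 0.762 CPM in C2-/-, with WT mice at both ends. Its log2 fold change was -0.94 ± 0.66 (adjusted p = 0.968), and -0.33 without WT mouse 1, the highest. Myh7b was at 3.93, 1.28, 1.64 and 0.832 CPM in WT and at 1.29, 1.64, 2.62 and 1.98 CPM in C2-/-, a log2 fold change of -0.03 ± 0.45 (adjusted p = 0.998), whose direction was reversed in 6 of 16 alternatives.

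Other genes of the heart were nearly absent, as the 4 of 6 cardiac markers in the table summed to between 0.0747 and 0.355 CPM per mouse, and Nppa and Mybpc3, which mark heart muscle, were at 0 in every WT mouse. In C2-/- mice 1 to 4, Nppa was at 0.0378, 0.0372, 0.177 and 0.0347 CPM, and Mybpc3 was at 0.0355 CPM in mouse 3 and at 0 in the others. Except for Nppa in C2-/- mouse 3, these values lay below 3 counts, the limit of detection used here. Of the same markers, Tnni3 had means of 0.074 CPM in WT and 0.0536 CPM in C2-/-, and Ryr2 of 0.0927 and 0.155 CPM. Among the muscle spindle markers, Egr3, a transcription factor of the intrafusal fibres of the spindle, was at 1.27, 5.18, 0.859 and 15.05 CPM in WT and at 0.416, 9.30, 0.248 and 0.52 CPM in C2-/-. WT mouse 4 was thus the highest in both Egr3 and Myh7. C2-/- mouse 2, the next highest in Egr3, had only 0.446 CPM of Myh7. In Etv4, WT mouse 4 was at 1.27 CPM, within the range of the other mice. Summed with Etv4, the second marker, the spindle markers lay between 1.90 and 16.3 CPM in WT and between 2.15 and 11.3 CPM in C2-/-. Whether Egr3 varied with the amount of spindle fibres was not tested, nor was the part of these fibres in the Myh7 values.

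The developmental and extraocular isoforms had higher group means in C2-/- muscle, at 1.37 TPM or less, and C2-/- mouse 3 was the highest in each of them. Myh3 was at 1.97, 1.60, 2.43 and 1.23 CPM in WT and at 2.61, 1.49, 8.76 and 3.08 CPM in C2-/-. Mouse 3 stood above the others, and the groups overlapped through C2-/- mouse 2. The log2 fold change of 1.14 ± 0.49 (unadjusted p = 0.0406, adjusted p = 0.919) became 0.41 (unadjusted p = 0.248) without C2-/- mouse 3.

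Myh8 was at 1.74, 1.60, 4.26 and 1.92 CPM in WT and at 2.35, 4.02, 7.20 and 4.26 CPM in C2-/-. WT mouse 3 lay among the C2-/- mice, and the other WT mice lay below all of them. The log2 fold change was 0.91 ± 0.39 (unadjusted p = 0.0433, adjusted p = 0.92), with 0.57 (unadjusted p = 0.167) without C2-/- mouse 3 and 1.35 (unadjusted p = 0.00363) without WT mouse 3.

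Myh13 passed the filter on low counts only through the C2-/- mice, so that its values had to differ, and its test is given as a description. It was found with 0, 1, 3 and 2 counts in WT mice 1 to 4 and with 20, 20, 61 and 14 counts in C2-/- mice 1 to 4, or at most 0.112 CPM in WT and 0.757, 0.744, 2.16 and 0.485 CPM in C2-/-. Every C2-/- mouse lay above every WT mouse, none of which exceeded 3 counts, the limit of detection used here. Over the 4 mice of each group, 115 counts stood against 6, a ratio of 18.7 after TMM scaling, with an exact 95% interval from 8.34 to 52.1 that covers counting error only. The fitted log2 fold change, which depends on the prior count at such levels, was 4.12 ± 0.73 (unadjusted p = 0.00020, adjusted p = 0.228). With DESeq2 the adjusted p was 0.000447, and over the other alternatives it ran from 0.171 to 0.677. Without C2-/- mouse 3, which also kept the most Mybpc2 RNA, the log2 fold change was 3.47 (adjusted p = 0.388).

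Myh13 shares stretches with more abundant members, and its counts are therefore also given against theirs. For each 1000000 Myh1 counts, the Myh13 counts numbered 0, 7.15, 13.1 and 14.04 in WT and 88.9, 98.1, 230 and 63.9 in C2-/-. As a percentage of Myh8 counts, Myh13 was at 0, 2.27, 2.63 and 3.77 in WT and at 32.3, 18.5, 30.05 and 11.4 in C2-/-. Neither ratio overlapped between the groups, as the Myh13 counts themselves did not, so the ratios are a description and add no separate evidence. Where in the Myh13 transcript its reads lie was not analysed here, and the part of reads from other members in its counts was not tested.

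**Figure D5:**
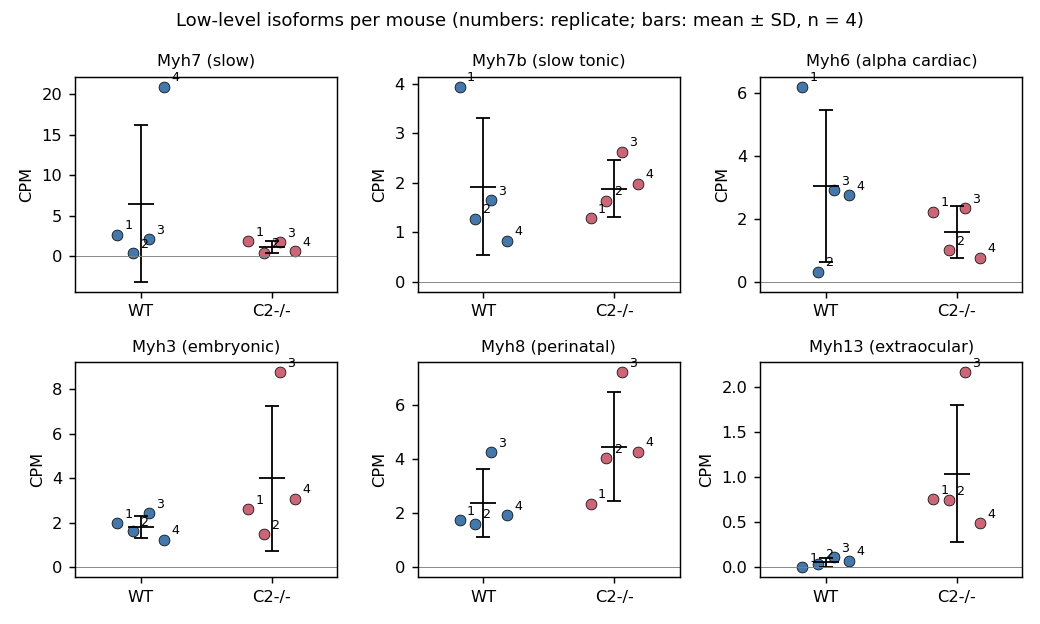
CPM of the 6 low members in each mouse, numbered by replicate, with the group mean and SD (n = 4) in black and a separate linear axis for each gene. WT mouse 4 carries the Myh7 mean at 20.9 CPM, C2-/- mouse 3 is the highest in Myh3, Myh8 and Myh13, and only in Myh13 do all C2-/- mice lie above all WT mice.

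The thin filament, light chain and regulatory genes that accompany each isoform were examined by lists. Of the 12 fast fibre partners, all tested, Mybpc2 itself was past an unadjusted p of 0.05 and no other gene was, and the median log2 fold change was -0.06. Atp2a1, the fast calcium pump, stood at 60220 ± 8743 CPM in WT and 53131 ± 2680 CPM in C2-/- (SD, n = 4 each), and Tnnt3, fast troponin T, at 15617 ± 2002 and 15545 ± 1473 CPM. Neither pair differed beyond its spread, with adjusted p-values of 0.968 and 0.998.

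Of the 14 slow fibre partners, 10 had values below 0 on the log2 scale, with a median of -0.29, against 6804 of all 12542 tested genes below 0. Only 1 was past an unadjusted p of 0.05, against 5.29% of all tested genes. That gene was Myl2, the regulatory light chain of slow and ventricular myosin, at 1.35, 1.86, 1.34 and 4.13 CPM in WT and at 0.832, 0.372, 0.567 and 0.97 CPM in C2-/-. The groups did not overlap, as in 3.38% of all tested genes, and WT mouse 4 was the highest, as in Myh7. Its log2 fold change was -1.66 ± 0.45 (unadjusted p = 0.00402, adjusted p = 0.615) and stayed between -1.87 and -1.13 as each mouse was left out. The most highly expressed slow partners, Atp2a2 (30.5 ± 3.92 and 32.9 ± 3.58 CPM) and Tpm3 (28.1 ± 5.90 and 25.2 ± 4.40 CPM), overlapped between the groups.

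Of the 12 developmental and regeneration partners, 11 were tested, 1 was past an unadjusted p of 0.05 (5.29% of all tested genes), and the median was -0.20. Actc1, the cardiac alpha-actin that is also the actin of developing skeletal muscle, was at 38.3, 15.3, 8.74 and 15.0 CPM in WT and at 45.3, 30.5, 49.2 and 23.4 CPM in C2-/-. WT mouse 1 lay among the C2-/- mice, and the log2 fold change of 0.94 ± 0.41 (unadjusted p = 0.0431, adjusted p = 0.92) became 1.51 (unadjusted p = 0.000643) without it. With any of 5 other mice left out, the unadjusted p was above 0.05, and the lowest log2 fold change was 0.70 (unadjusted p = 0.0921), without WT mouse 3. Myod1, a myogenic transcription factor, stood at 72.1 ± 55.4 and 76.3 ± 29.5 CPM, and 5 of the 11 tested genes had log2 fold changes above 0 and 6 below. WT mouse 2 was the highest of all mice in Myod1, at 154.7 CPM. It was also the highest in the sum of the list, at 277.7 CPM, where the other WT mice lay between 108.1 and 135.8 CPM. The satellite cell markers summed to between 1.42 and 2.73 CPM in WT and between 1.44 and 3.68 CPM in C2-/-, led by Chodl and Pax7, and 0 of the 3 tested were past an unadjusted p of 0.05.

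Of the 12 genes of thick filament assembly and the M-band, 1 was past an unadjusted p of 0.05, Fbxo32, a ubiquitin ligase of atrophying muscle. It was at 202, 971, 236 and 530 CPM in WT and at 208, 200, 242 and 239 CPM in C2-/-, with WT mouse 2 far above the others, and its log2 fold change of -1.13 ± 0.42 (unadjusted p = 0.0234, adjusted p = 0.857) was -0.53 (unadjusted p = 0.0863) without that mouse. The unadjusted p was also above 0.05 without C2-/- mouse 1 (0.0533) or C2-/- mouse 2 (0.0545). Titin (Ttn), the spring of the sarcomere, stood at 3241 ± 1524 and 3895 ± 805 CPM, and Mybpc1, the slow paralogue of the deleted gene, at 2272 ± 338 and 2209 ± 350 CPM. The myosin chaperone Unc45b and its partner Smyd1, a methyltransferase, had log2 fold changes of 0.10 ± 0.15 and 0.12 ± 0.12, with adjusted p-values of 0.983 and 0.968.

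Of the 21 regulators of myosin genes, 20 were tested, none was past an unadjusted p of 0.05 in the edgeR test, 10 lay on each side of 0, and the median was -0.01. The highest were Mef2c, at 654 ± 170 and 720 ± 79.1 CPM, and Mef2d, at 475 ± 26.3 and 417 ± 52.4 CPM, both factors that bind the MEF2 motif. Of the 5 other class II heavy chains listed, 4 were tested, all with log2 fold changes above 0 and a median of 0.26, and none was past an unadjusted p of 0.05. Myh14 was at 57.2 ± 8.88 and 59.3 ± 8.22 CPM and Myh9 at 41.4 ± 7.29 and 49.8 ± 3.15 CPM.

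Markers of other cells were summed for each mouse, and the sums overlapped between the groups in each list. The 5 tendon markers summed to between 58.0 and 169.7 CPM in WT and between 89.6 and 234.7 CPM in C2-/-, with Fmod and Thbs4 the highest among them. Of the 4 tested, 3 had log2 fold changes above 0 and 1 below, Scx, at -0.13 ± 0.27 (unadjusted p = 0.642). Tnmd, a tendon glycoprotein, had a log2 fold change of 1.43 ± 0.55 (unadjusted p = 0.0265, adjusted p = 0.882). Its unadjusted p was above 0.05 in 3 of the 8 fits that left out a mouse, up to 0.0774. Of the 2 spindle markers Etv4 had a log2 fold change of 0.73 ± 0.32 (unadjusted p = 0.0447, adjusted p = 0.922), and its unadjusted p was above 0.05 in 6 of those 8 fits, up to 0.154 without C2-/- mouse 1. Egr3, the other spindle marker, went the other way, with a log2 fold change of -1.10 ± 1.14 (unadjusted p = 0.358, adjusted p = 0.969). The 7 denervated fibre markers summed to between 48.0 and 179.1 CPM in WT and between 50.6 and 80.5 CPM in C2-/-, led by Chrna1, a subunit of the acetylcholine receptor, and Ncam1, with 0 of 6 tested past an unadjusted p of 0.05. The 3 vascular smooth muscle markers, led by Acta2 and Myh11, summed to between 109.5 and 145.3 CPM in WT and between 132.4 and 185.6 CPM in C2-/-. The part of these cells in the values of Myh3, Myh8 and Myh13 was not tested.

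For each member, the 3 genes whose log2 CPM followed it most closely over the 8 mice were taken from 11398 genes at a mean of at least 1 CPM. For Myh4 these were Spef1 (Pearson r = 0.968), Zc3h13 (0.963) and Eya4 (0.961), of which Eya4 encodes a transcriptional coactivator. Myh1 was followed by Pdgfra (0.973), a receptor of mesenchymal progenitors, Bgn (0.96), an extracellular matrix proteoglycan, and Prmt2 (0.954), and Myh2 by Ppp2r5b (0.969), Paqr4 (0.958) and Barx2 (0.958). For the slow and cardiac members they were Hccs, Ext2 and Alg3 for Myh7 (0.951 to 0.967), Mipep, Cinp and Ric8b for Myh6 (0.967 to 0.99), and Emilin1, Yipf1 and Idua for Myh7b (0.904 to 0.959). For the developmental and extraocular members they were Pde10a, Plpp3 and Ypel2 for Myh3 (0.952 to 0.956), Scara5, Polh and Tnxb for Myh8 (0.966 to 0.978), and Ostc, Lgi4 and Col5a2 for Myh13 (0.939 to 0.951). No member and no gene of the lists was among them, and since they are the highest of many genes over 8 points that share genotype, library and depth, they are a description only.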

How the data were processed

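RNA from 8 TA muscles was enriched for messenger RNA with oligo(dT) and sequenced by the authors, 1 library per mouse, and genotypes were taken from the labels. The authors deposited expected counts per gene, which were not normalized, and TPM, which they scaled for length and depth. The submitters' processing notes name HISAT, Bowtie2, DESeq2 and the build GRCm38.p6, and the methods name featureCounts for the counting. Between 5.5% and 6.53% of the counts of a mouse were not whole, and all were rounded to whole numbers. The 8 other columns of values per mouse and the authors' own comparison (log2 fold changes, p-values and q-values) were not used. Of 16687 rows, 1 without a gene ID was left out.

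The main test was the quasi-likelihood test of edgeR 4.0.16 (R 4.3.3) with TMM factors and its default filter on low counts, Benjamini-Hochberg adjustment over 12542 genes, and a call at an adjusted p under 0.05 above 1.5-fold. The methods name limma and voom (here limma 3.58.1), which were run as an alternative, as were DESeq2 1.42.0, RLE size factors, other filters, a library size without the members, the replicate number as a block, and each mouse left out. The edgeR script was tested on simulated data. TPM and CPM are given as mean ± SD over 4 mice. The Myh4 share was compared by two-sided exact permutation tests, and the shares of the other members were not tested. The number of counts per gene limits the precision: 3 counts correspond to 0.101 to 0.118 CPM of the total counts. Nothing in the labels says that the mice came from separate litters or cages, and p-values measure the spread between these mice.

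Coding sequences are the longest open reading frames of GENCODE vM21 transcripts, aligned pairwise. The members and gene lists were chosen with earlier results of these data known. Named genes are the 9 members, listed genes past an unadjusted p of 0.05, the 2 most highly expressed tested genes of each list, the 3 genes most like each member, and Mybpc2. Nppa, Mybpc3, Tnni3, Ryr2, Unc45b, Smyd1 and Scx were chosen after their values were seen.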

Additional observations from a re-analysis of the deposited data

Results flagged for a closer look

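The CPM and the family share of each member were examined in each genotype, 36 groups of 4 values in all. In 3 of the 36, 1 mouse lay far from the other 3, by a rule that flags about 1 group in 20 for normally distributed values. The groups share mice and are not independent, so the number flagged cannot be set against that rate. In the WT mice, the gap between mouse 4 (20.9 CPM of Myh7) and the next mouse took 0.89 of the whole range of Myh7. In the same group, the gap between mouse 3 (4.26 CPM of Myh8) and the next took 0.882 of the range of Myh8. In the C2-/- mice, the gap between mouse 3 (2.16 CPM of Myh13) and the next took 0.838 of the range of Myh13. The values without each of these mice are given beside the results.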

How the results depend on the processing

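Over all tested genes, 4 were called, 38 with DESeq2, 380 at an unadjusted p under 0.05 above 1.5-fold, and between 4 and 7 with 1 mouse left out (7 without WT mouse 2). At an adjusted p under 0.05, no member was called under any alternative run, except Myh13 with DESeq2 (log2 fold change 4.23, adjusted p = 0.000447). At an unadjusted p under 0.05 above 1.5-fold, 4 members were past the threshold (Myh3, Myh7, Myh8 and Myh13), against 380 of all 12542 tested genes. Myh13 entered the test only through the C2-/- mice, so its part in both results is a description. Myh13 and Myh6 could not be fitted with the filter of 10 counts in every mouse. With 1 mouse left out, the log2 fold change ran from -0.080 to 0.36 for Myh4, from -0.49 to 0.037 for Myh2 and from -0.27 to 0.59 for Myh7b. The direction of Myh4 and Myh2 was reversed without WT mouse 1, and that of Myh7b with limma-voom (0.19), with quality weights (0.31), and without WT mouse 1 (0.59), C2-/- mouse 1 (0.12) or C2-/- mouse 2 (0.038). The difference in the Myh4 share ran from -3.63 to 1.06 points with 1 mouse left out, and was 1.06 without WT mouse 4 and 0.279 without C2-/- mouse 1. Outside the marker lists, the count of companion genes at an unadjusted p under 0.05 was 3 beside Mybpc2 (Myl2, Actc1 and Fbxo32), and between 3 and 6 with 1 mouse left out (5 without WT mouse 3, 6 without WT mouse 2).

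In the labels used here, same-numbered mice are linked by the number only. The correlations of their deviations from the group means were 0.267, 0.042, -0.051 and 0.021. The Myh4 shares in WT and C2-/- were 78.4% and 80.1% for mice 1, and 88.4% and 88.1% for mice 2. They were 83.6% and 85.0% for mice 3, and 92.5% and 85.0% for mice 4. Whether the number marks a pair or a batch was not tested further. With the replicate number as a block, 4 genes were called, Myh7b was at 0.17, Myh13 at 4.08 (adjusted p = 0.192) and Myh7 at -1.38 (unadjusted p = 0.148), and the unadjusted p was 0.0196 for Myh1 and 0.00357 for Myh8. The limma-voom fit without the block also gave -1.38 for Myh7 (unadjusted p = 0.27). Over these pairs, the sign-flip test of the Myh4 share gave p = 0.875 (exact).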
